A study of Mus musculus with 2 samples.

Results

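The let-7 genes that lie outside the miR-99/miR-125 clusters were measured by microRNA sequencing of the mouse hindbrain, the part of the brain that forms the cerebellum, pons and medulla. The rule for their choice is the gene symbol and uses no count, although earlier results of these data were known when it was set, and 9 of the 1973 gene rows belong to them. Of these, 8 have a row of their own (Mirlet7g, Mirlet7i, Mirlet7a-1, Mirlet7d, Mirlet7c-2, Mirlet7b, Mirlet7f-2 and Mir98). The remaining row is Gm24111 (ENSMUSG00000093232.1), a predicted gene on the plus strand of chromosome 13 from 48537825 to 48537921. Mirlet7f-1 is annotated on its opposite strand, so the opposite-strand reads of that row are given here as Mirlet7f-1.

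The study consisted of 2 libraries of 1 group, and it held no treatment and no other tissue or age. Both were made from whole hindbrain of healthy B6NCrl embryos at 15.5 days, with males and females pooled. Replicate 2 pooled 62 embryos and replicate 1 pooled 78. The labels number them as biological replicates, and the only comparison available is that of the pools. In pooled bulk tissue, fewer cells of a type and less RNA per cell cannot be told apart. On the strand of the genes lay 4839647 reads in replicate 2 and 3937840 in replicate 1. Levels are given as CPM, the reads of a gene scaled to a total of 1000000 gene reads. A gene with no read could still stand at up to 3 reads by counting error alone, which is 0.62 CPM for replicate 2 and 0.762 CPM for replicate 1.

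The let-7 family was found in the worm as a regulator of developmental timing and is conserved across bilaterian animals. In the vertebrate nervous system its mature forms accumulate as progenitors stop dividing and differentiate, and they repress growth regulators such as Hmga2, Myc and Lin28. Lin28 proteins in turn bind let-7 precursors at the terminal loop and hold back their processing. A microRNA gene is transcribed as a hairpin from which a 5p and a 3p strand can be cut, and the 5p strand is the main product of let-7 genes. Targets are found mainly through the seed, bases 2 to 8 of the mature strand.

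The 8 different 5p forms made by the 9 genes are shown because they set both the shared targeting and the degree to which reads can be told apart. RefSeq sequences on GRCm38.p6 were matched for all 9 hairpins. The seed is in capitals.
let-7g-5p: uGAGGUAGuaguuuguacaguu
let-7i-5p: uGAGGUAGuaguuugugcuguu
let-7d-5p: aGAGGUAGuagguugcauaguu
let-7b-5p: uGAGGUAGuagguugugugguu
miR-98-5p: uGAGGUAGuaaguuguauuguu
let-7f-5p: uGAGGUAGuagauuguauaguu
let-7c-5p: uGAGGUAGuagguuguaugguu
let-7a-5p: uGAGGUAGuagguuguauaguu

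All of these forms carry 1 seed and form 1 seed group, although miR-98 bears a different name. Each is 22 nt long, and CPM was not divided by hairpin length. Where a 5p form also lies in another hairpin, the reads counted at a gene need not be that form. With let-7e-5p, made from the miR-99b/miR-125a cluster, there were 9 forms, of which 9 had the same seed. Across the 9 forms 14 of the 22 positions were invariant and 8 varied. Relative to let-7a-5p, counting positions from 1 at the 5′ end, let-7f-5p differed by G12A alone and let-7c-5p by A19G alone. let-7b-5p carried A17G and A19G, so it was 1 base from let-7c-5p. let-7g-5p carried G12U and U18C, and let-7i-5p carried these and also A17G and A19U. let-7d-5p carried U1A and U16C, and was the form whose first base differed. miR-98-5p carried G11A and A19U. Over the 36 pairs of forms the number of differing positions ran between 1 and 6. The closest pairs, at 1 position, were let-7a with let-7f, let-7a with let-7c, let-7a with let-7e, and let-7c with let-7b.

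**Figure D1:**
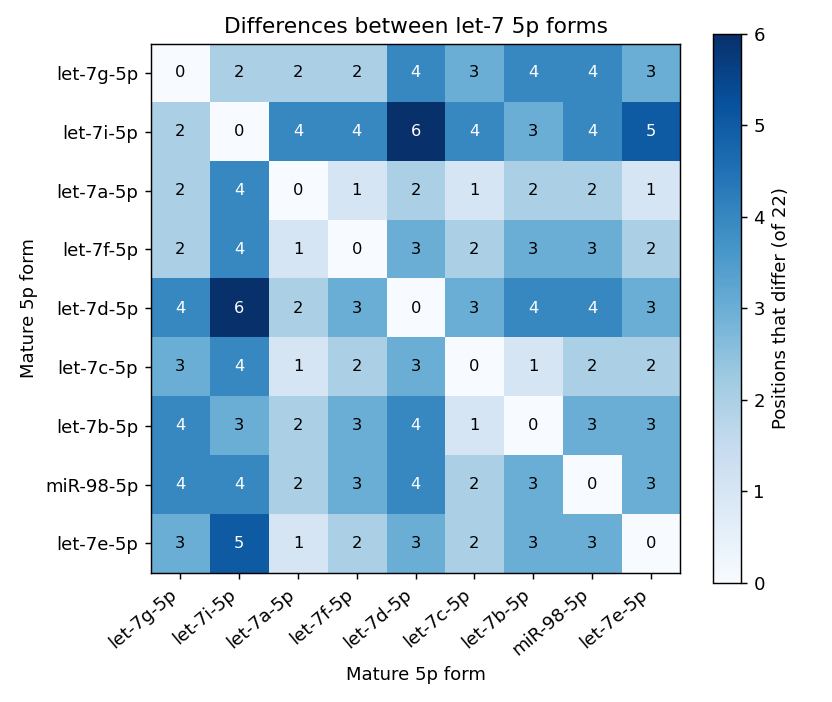
Number of the 22 positions at which each pair of mature 5p forms differs, for the 8 forms of the 9 genes and for let-7e. The let-7a, let-7c and let-7f forms stand within 2 positions of each other, while let-7i and let-7d differ at 6.

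The 5p form was found in the hairpin of no other microRNA gene for 5 of the 9 genes (Mirlet7g, Mirlet7i, Mirlet7d, Mirlet7b and Mir98), among 2193 annotated microRNA transcripts. For the other 4 the whole 5p form also lay in another hairpin: that of Mirlet7a-1 in Mirlet7a-2, that of Mirlet7c-2 in Mirlet7c-1, and those of Mirlet7f-1 and Mirlet7f-2 in each other. This bears on the counts, since the tables list reads placed at several loci apart from the genes. Such reads numbered 3596192 in replicate 2 and 2947397 in replicate 1, and the 9 genes held 625748 reads in replicate 2 and 536021 in replicate 1. How many of the reads placed at several loci are let-7 reads was not tested. The hairpins of the genes that share let-7f-5p are shown with their longest common stretch, of 22 nt, in capitals.
Mirlet7f-1: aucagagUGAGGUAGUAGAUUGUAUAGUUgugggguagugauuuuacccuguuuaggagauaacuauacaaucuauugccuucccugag
Mirlet7f-2: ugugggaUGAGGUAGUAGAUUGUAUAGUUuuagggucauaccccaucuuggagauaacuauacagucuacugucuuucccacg

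That stretch is let-7f-5p itself, and 1 more hairpin base at its 3′ end makes it differ between the loci. Mirlet7a-1 and Mirlet7c-2 have different 5p forms but share a 26-nt stretch of the other arm, which holds the whole 3p form of both. They are shown with that stretch in capitals.
Mirlet7a-1: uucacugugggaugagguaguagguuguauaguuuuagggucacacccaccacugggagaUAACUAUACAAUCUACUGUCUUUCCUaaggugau
Mirlet7c-2: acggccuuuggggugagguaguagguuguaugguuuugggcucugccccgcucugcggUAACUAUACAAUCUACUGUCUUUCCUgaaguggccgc

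For these a pair of extra bases beyond the 5p form is needed before it is found in 1 hairpin alone, and the 3p form is found in both. Mirlet7a-1 and Mirlet7c-2 were therefore the members for which neither mature strand was particular to the locus. The 3p forms of the other 7 genes were found in their own hairpin only. The longest stretch shared with any other microRNA gene was 19 nt for Mirlet7g, Mirlet7i and Mirlet7b, 17 nt for Mir98 and 14 nt for Mirlet7d, all shorter than the mature form.

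Together the 9 genes held 12.9% of the gene reads in replicate 2 (exact Clopper-Pearson 95% interval 12.90 to 12.96) and 13.6% in replicate 1 (13.58 to 13.65), a mean of 13.3% ± 0.483 (SD, n = 2). Intervals cover counting error only, since reads without molecular identifiers are not independent molecules. Most of that share came from the single genes Mirlet7g and Mirlet7i, which supplied 80.8% of the members' reads in replicate 2 and 81.4% in replicate 1. The chromosome 13 cluster supplied 6.97% in replicate 2 and 6.87% in replicate 1. The chromosome 15 cluster supplied 6.52% in replicate 2 and 5.73% in replicate 1, and the X chromosome cluster 5.70% in replicate 2 and 6.02% in replicate 1.

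**Figure D2:**
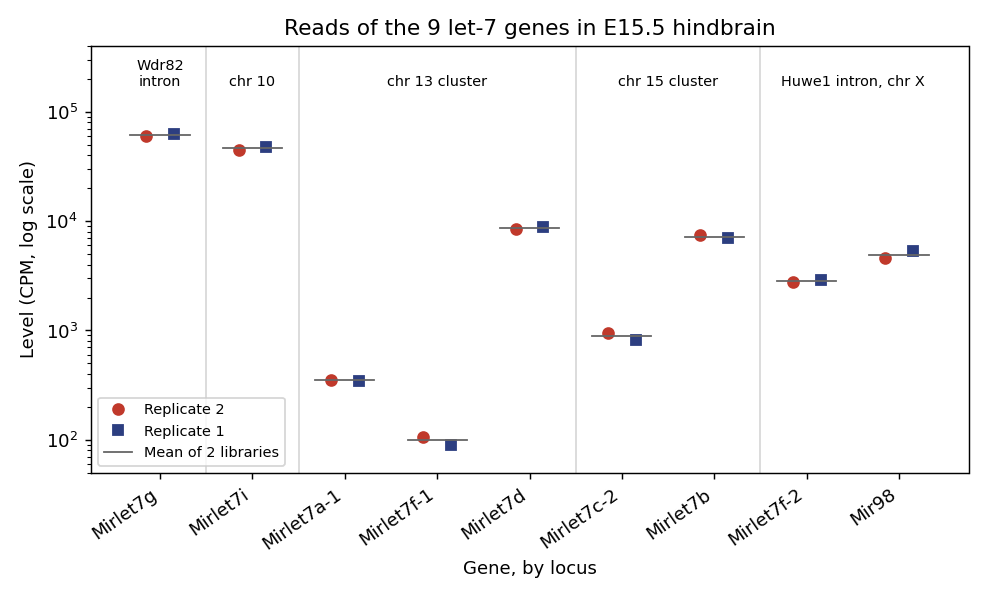
Level of each of the 9 genes in replicate 2 (circles) and replicate 1 (squares), in CPM on a log scale, ordered by locus, with a line at the mean. Mirlet7g and Mirlet7i lie at or above 45017 CPM in both libraries, and within each cluster the genes differ by more than the libraries do.

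Mirlet7g lies in an intron of Wdr82, which encodes a subunit of histone H3K4 methyltransferase complexes, on the plus strand of chromosome 9 (ENSMUSG00000065440.1; GRCm38, 106178840 to 106178927). It had 287813 reads, or 59470 CPM, in replicate 2 and 247757 reads, or 62917 CPM, in replicate 1, a mean of 61193 ± 2438 CPM (SD, n = 2). That level made it the third of the 1973 gene rows. Mirlet7i (ENSMUSG00000065406.2) lies on the minus strand of chromosome 10 from 122985640 to 122985724, within an exon of the annotated pseudogene D630033A02Rik. It had 217865 reads (45017 CPM) in replicate 2 and 188495 reads (47868 CPM) in replicate 1, a mean of 46442 ± 2016 CPM, and had rank 4. The ratio of Mirlet7g to Mirlet7i reads was 1.32 (exact 95% interval 1.31 to 1.33) in replicate 2 and 1.31 (1.31 to 1.32) in replicate 1, so it differed between the pools by less than its counting error.

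The genes nearest to these in level were named by rank of mean CPM, the only measure of likeness that 2 libraries of 1 group give. Above Mirlet7g stood Mir99a, a miR-99/100 family gene that shares its cluster with Mirlet7c-1, by 1.44 on the log2 scale of mean CPM. Mir10a, a Hox cluster gene, stood above it by 0.22, with 81827 CPM in replicate 2 and 60695 CPM in replicate 1. The lower Mir10a value lay between the Mirlet7g values, so these genes were not separated beyond their spread. Below Mirlet7i stood Mir10b, at 48577 CPM in replicate 2 and 30176 CPM in replicate 1, and Mir335, which lies in an intron of Mest, at 36496 CPM in replicate 2 and 42142 CPM in replicate 1. Mir10b overlapped Mirlet7i, and Mir335 did not.

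The chromosome 13 cluster holds Mirlet7a-1, Mirlet7f-1 and Mirlet7d on the minus strand, all within exons of the long noncoding RNA 6720427I07Rik. Mirlet7a-1 (48538179 to 48538272) is 261 nt from Mirlet7f-1 (48537829 to 48537917), which is 1714 nt from Mirlet7d (48536012 to 48536114). Mirlet7d (ENSMUSG00000065453.1) had 41396 reads (8554 CPM) in replicate 2 and 35086 reads (8910 CPM) in replicate 1, a mean of 8732 ± 252 CPM. Mirlet7a-1 (ENSMUSG00000065421.2) had 1722 reads (356 CPM) in replicate 2 and 1366 reads (347 CPM) in replicate 1, a mean of 351 ± 6.31 CPM. Mirlet7f-1 had 517 reads (107 CPM) in replicate 2 and 357 reads (90.7 CPM) in replicate 1, a mean of 98.7 ± 11.4 CPM, the lowest of the 9 genes. Although the hairpins are annotated in 1 transcript, their levels ran between 98.7 and 8732 CPM, all below Mirlet7i and Mirlet7g.

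Within this cluster Mirlet7d had 24.0 times the reads of Mirlet7a-1 in replicate 2 and 25.7 times in replicate 1. Against Mirlet7f-1 it had 80.1 times the reads in replicate 2 and 98.3 times in replicate 1. The ratio of Mirlet7a-1 to Mirlet7d agreed between the pools within its exact intervals, at 0.0416 (0.0396 to 0.0437) in replicate 2 and 0.0389 (0.0369 to 0.0411) in replicate 1. That of Mirlet7f-1 to Mirlet7d did not, at 0.0125 (0.0114 to 0.0136) in replicate 2 and 0.0102 (0.00914 to 0.0113) in replicate 1. Mirlet7d is the member of the cluster whose 5p form is found at no other gene, and the part of shared sequence in these ratios was not tested.

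The chromosome 15 cluster holds Mirlet7c-2 (ENSMUSG00000065608.1; 85706603 to 85706697) and Mirlet7b (ENSMUSG00000065564.1; 85707319 to 85707403), 621 nt apart on the plus strand and within exons of Lncppara. Mirlet7b had 36227 reads (7485 CPM) in replicate 2 and 27461 reads (6974 CPM) in replicate 1, a mean of 7230 ± 362 CPM. Mirlet7c-2 had 4546 reads (939 CPM) in replicate 2 and 3249 reads (825 CPM) in replicate 1, a mean of 882 ± 80.8 CPM. Both were higher in replicate 2. The ratio of Mirlet7c-2 to Mirlet7b was 0.125 (exact interval 0.122 to 0.129) in replicate 2 and 0.118 (0.114 to 0.123) in replicate 1, and these intervals overlapped.

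The X chromosome cluster holds Mirlet7f-2 (ENSMUSG00000065602.1; 151912346 to 151912428) and Mir98 (ENSMUSG00000065536.2; 151913214 to 151913321), 785 nt apart in an intron of Huwe1, which encodes a ubiquitin ligase. Mir98 had 22349 reads (4618 CPM) in replicate 2 and 20821 reads (5287 CPM) in replicate 1, a mean of 4953 ± 473 CPM. Mirlet7f-2 had 13313 reads (2751 CPM) in replicate 2 and 11429 reads (2902 CPM) in replicate 1, a mean of 2827 ± 107 CPM. Both were lower in replicate 2, Mir98 by more. The ratio of Mirlet7f-2 to Mir98 was 0.596 (0.583 to 0.609) in replicate 2 and 0.549 (0.536 to 0.562) in replicate 1, and these intervals did not overlap.

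Mirlet7f-2 and Mirlet7f-1 encode the same 5p form and differed widely in reads. Mirlet7f-2 had 25.8 times the reads of Mirlet7f-1 in replicate 2 (23.6 to 28.2) and 32.01 times in replicate 1 (28.8 to 35.7). Reads that end within the printed common stretch can be placed at both loci and counted at neither, so this is a ratio of the reads that could be placed, and not of let-7f made at each locus. Mirlet7a-1 and Mirlet7a-2, which share let-7a-5p, stood close: their ratio was 1.11 (1.03 to 1.19) in replicate 2 and 1.07 (0.991 to 1.16) in replicate 1. For the pair that shares let-7c-5p, Mirlet7c-2 had 1.61 times the reads of Mirlet7c-1 in replicate 2 (1.54 to 1.69) and 1.53 times in replicate 1 (1.45 to 1.61). The let-7a and let-7c ratios are likewise of the reads that could be placed, and not of the let-7 made at each locus.

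By mean CPM the order of the 9 genes was Mirlet7g, Mirlet7i, Mirlet7d, Mirlet7b, Mir98, Mirlet7f-2, Mirlet7c-2, Mirlet7a-1 and Mirlet7f-1. In each of the 8 neighbouring pairs both values of the higher gene lay above both values of the lower. With 2 libraries an exact permutation test cannot reach a threshold of 0.05, so no p-value is given for the order. The order followed the copies of the 5p form: the 5 genes whose 5p form is found in their own hairpin only ranged between 4953 and 61193 CPM, and the 4 that share it ranged between 98.7 and 2827 CPM. The first 5 held 96.8% of the members' reads in replicate 2 and 96.9% in replicate 1. The part of reads placed at several loci in this order was not tested, and the counts do not show whether let-7a, let-7c or let-7f was less abundant than let-7g as a molecule.

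The let-7 genes of the miR-99/miR-125 clusters divided in the same way, though this is no independent test. Reads of a shared 5p form can be placed at several loci and counted at no gene. The part of such reads in the division was not tested. Mirlet7a-2 had 1557 reads (322 CPM) in replicate 2 and 1276 reads (324 CPM) in replicate 1, and Mirlet7c-1 had 2815 reads (582 CPM) in replicate 2 and 2128 reads (540 CPM) in replicate 1. Each shares its 5p form with one of the 9 genes. Mirlet7e, whose 5p form is found in its own hairpin only, is annotated on the strand opposite to the predicted gene Gm25927, a row chosen after its values were seen. On that strand lay 28825 reads (5956 CPM) in replicate 2 and 23571 reads (5986 CPM) in replicate 1. With Mirlet7e the clusters' let-7 genes held 0.685% ± 0.000649 of the gene reads (SD, n = 2), against 13.3% for the 9 genes outside. Reads placed at several loci are in neither share, and Mirlet7a-2 and Mirlet7c-1 share their 5p form. These are therefore shares of the reads that could be placed, and not of let-7 made by each set. Over these 12 let-7 genes, the 6 with a 5p form of their own stood at or above 4953 CPM and the 6 that share one at or below 2827 CPM. The division covers these genes only. Mir7j and Mir7k, whose hairpins resemble those of Mirlet7i and Mirlet7e in part, are not among them. Mir7j, with a stretch within 1 mismatch of let-7i-5p, had a mean of 61.0 CPM, and copies of that stretch in other hairpins were not searched.

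**Figure D3:**
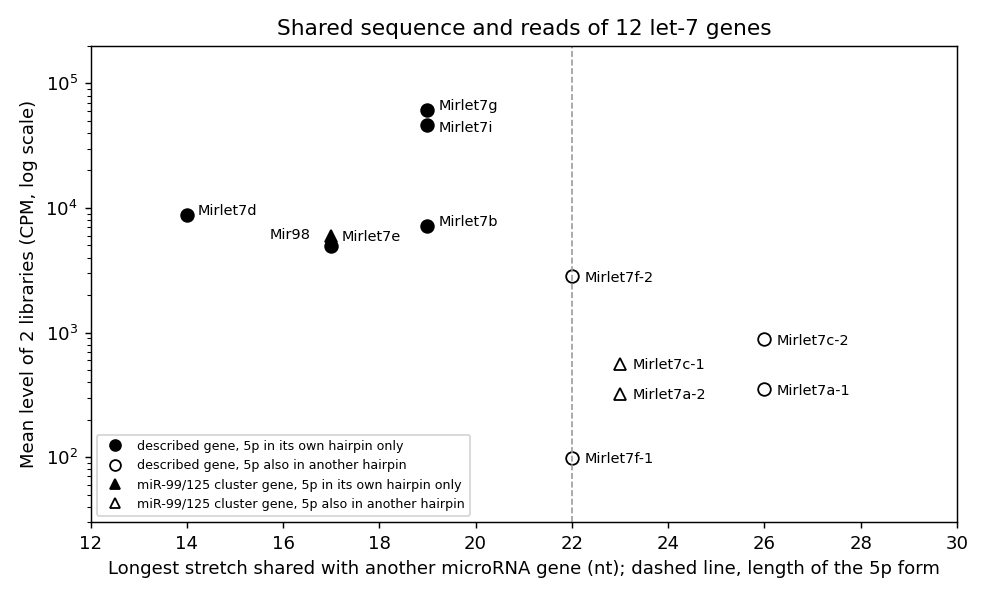
Mean CPM of 12 let-7 genes on a log scale against the longest stretch that the hairpin shares with another microRNA gene, in nt, with the 22-nt length of the 5p form dashed. Filled points, the genes whose 5p form lies in their own hairpin only, stand at 14 to 19 nt and at or above 4953 CPM, and open points stand at 22 to 26 nt and at or below 2827 CPM. Reads placed at several loci, as those of a shared 5p form can be, are in none of these levels. Mir7j and Mir7k are not drawn.

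The hairpins were also searched for GGAG, the letters that the zinc knuckles of Lin28 are known to bind. The motif was present in 6 of the 9 hairpins, and 7 when the reverse complement was counted as well. Among 1005 RefSeq mouse hairpins 44.5% held it, and 61.0% held it on either strand. In each of the 6 it began 7 or 8 bases before the 3p form, in the loop region. Mirlet7g, with the motif, and Mir98, without it, are shown with GGAG in capitals.
Mirlet7g: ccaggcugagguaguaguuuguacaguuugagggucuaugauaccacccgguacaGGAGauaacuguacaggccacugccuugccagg
Mir98: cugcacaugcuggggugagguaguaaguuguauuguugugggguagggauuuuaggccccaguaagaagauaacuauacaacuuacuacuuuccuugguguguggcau

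Mirlet7b, Mirlet7c-2 and Mir98 lacked these letters and ranged between 882 and 7230 CPM. The 6 genes with them ranged between 98.7 and 61193 CPM, so the levels overlapped. The 3 let-7 genes of the miR-99/miR-125 clusters held them as well. A match is a description of the sequence, and binding was not measured.

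The pools were then compared gene by gene to see how stable these levels were. After TMM scaling, a two-sided exact binomial test with Benjamini-Hochberg adjustment over 427 features called 15.2% of all features higher and 20.6% lower in replicate 2. With 1 library on each side this sets these libraries against each other, and spread between embryo pools is outside what it measures. Of the 9 let-7 genes it called 2 higher and 5 lower. Genes with many reads were called more often: among the 209 features with at least 874 reads in both libraries together, the lowest total of a member, 21.1% were called higher and 34.9% lower. Past 1.5-fold in either direction lay 5.39% of all features called and 0 of the 9 let-7 genes. The members' median log2 ratio of replicate 2 over replicate 1 was -0.08, beside -0.01 over all features tested, and their median absolute log2 ratio was 0.10, beside 0.17. Features with far fewer reads than any member are in the values over all features. Neither the medians nor the 1.5-fold share was taken at matched depth, so they do not show the members to be more stable.

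**Figure D4:**
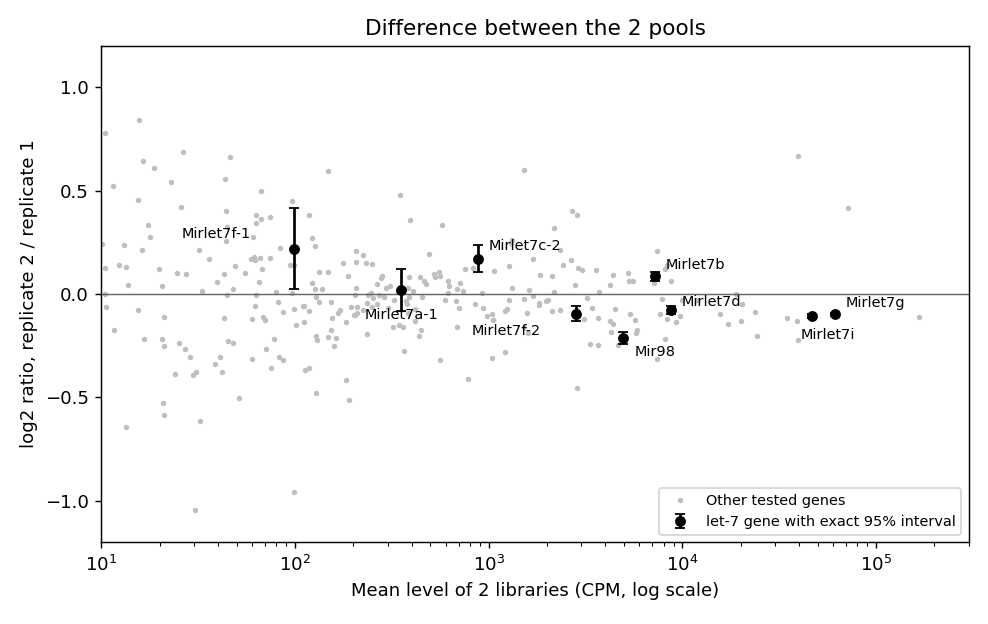
Log2 ratio of replicate 2 over replicate 1 against mean CPM on a log scale, for the 9 let-7 genes with exact 95% intervals (counting error only) and for 296 of the 418 other features tested, the rest lying outside the axes. The let-7 genes stand between -0.21 and 0.22.

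Of the pair of leading genes, Mirlet7g was lower in replicate 2 by a log2 ratio of -0.10 (exact 95% interval -0.11 to -0.09) and Mirlet7i by -0.11 (-0.11 to -0.10). The exact binomial adjusted p was 4.23e-134 for Mirlet7g and 1.23e-117 for Mirlet7i, values that reflect the number of reads. In size each is a fold of 0.93. Mirlet7d was lower in the same way, at -0.08 (-0.10 to -0.06).

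The genes of the chromosome 15 cluster were called in the other direction. Mirlet7c-2 was higher in replicate 2 by 0.17 (0.105 to 0.24; exact binomial adjusted p = 1.59e-06) and Mirlet7b by 0.09 (0.06 to 0.11; exact binomial adjusted p = 1.13e-12). In the X chromosome cluster Mir98 was lower by -0.21 (-0.24 to -0.18; exact binomial adjusted p = 3.63e-51) and Mirlet7f-2 by -0.09 (-0.13 to -0.06). Genes of 1 cluster were thus called in 1 direction for chromosomes 15 and X. In the chromosome 13 cluster Mirlet7d alone was called: Mirlet7a-1 was at 0.02 (-0.08 to 0.12; exact binomial adjusted p = 0.835) and Mirlet7f-1 at 0.22 (0.02 to 0.42; exact binomial adjusted p = 0.069).

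When every gene was allowed a coefficient of variation of 0.1 beyond counting error, edgeR's exact test called 0 of the 9 genes, with 0 at an unadjusted p under 0.05, and 6 of all 427 features. The called differences therefore exceeded the counting error of these libraries but not a spread of that size. The log2 ratios of the marker genes between the same pools were as follows. Endothelial Mir126a was at -0.20, mesenchymal Mir143 at -0.17 and Mir145a at 0.01, leukocyte Mir223 at -0.51, and erythroid Mir451a and Mir144 at -0.36 and -1.05. The choroid plexus gene Mir204 was at 0.32 and hindbrain Mir10a and Mir10b at 0.41 and 0.67. The exact binomial test called each of these but Mir145a, while edgeR's exact test at a coefficient of variation of 0.1 called Mir144 alone (adjusted p = 0.0193). Neural Mir137 and Mir9-3 were at 0.14 and 0.34, liver Mir122 at 0.66 and striated muscle Mir206 at -0.24. The ratios of Mir9-2 and the Mir124a genes, with 6 to 21 reads each, are not given. Summed over each list, the 2 erythroid markers had 124.8 CPM in replicate 2 and 173 CPM in replicate 1, and the 2 mesenchymal markers had 5620 CPM in replicate 2 and 6253 CPM in replicate 1. Mir126a, the endothelial marker, had 22600 CPM in replicate 2 and 25702 CPM in replicate 1. Also lower in replicate 2 were leukocyte Mir223 (158 CPM against 223 in replicate 1) and the striated muscle markers (23.3 against 27.2). Higher in replicate 2 were the hindbrain (130404 CPM against 90871 in replicate 1) and neural (9469 against 8424) markers. The choroid plexus (2419 against 1917) and liver (57.0 against 35.6) markers were higher there as well. The part of any of these markers in the let-7 ratios was not tested.

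The related list holds 10 genes: the let-7 genes of the miR-99/miR-125 clusters, the other genes of those clusters, and Mir202, whose mature strand resembles let-7. Of the 8 tested, 1 was called higher and 3 lower in replicate 2, beside 15.2% higher and 20.6% lower over all features. None of the 8 was called by edgeR's exact test at a coefficient of variation of 0.1, where the lowest unadjusted p was 0.304. All 8 had more than 874 reads in both libraries together. Among the features with at least that many, the exact binomial test called 21.1% higher and 34.9% lower. Mir125a, a miR-125 gene, was higher by 0.21. Mir99a, Mir100 and Mir99b, which encode the miR-99/100 family, were lower by -0.11, -0.13 and -0.13, similar in size to Mirlet7g. Mirlet7a-2 at -0.03, Mirlet7c-1 at 0.09, Mir125b-1 at -0.05 and Mir125b-2 at -0.04 were not called. Mir202 had 3 reads in replicate 2 and 1 read in replicate 1 and was not tested. Mirlet7e, outside the fit, was at -0.02 (exact interval -0.05 to 0.00).

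Markers were read beside the tissue label, with no other tissue in the study to set them against. Mir10a and Mir10b, from the Hox clusters active in the hindbrain, had ranks 2 and 5 among all gene rows. The neural gene Mir137 had 8811 CPM in replicate 2 and 7910 CPM in replicate 1. Copies of the Mir124a, Mir9, Mir1a and Mir133a genes share a mature form, and reads placed at several loci are not in their counts, so low values of these genes say nothing of the tissue. The neural Mir124a genes had between 6 and 21 reads each. Mir9-2 had 17 reads in replicate 2 and 6 in replicate 1, and Mir9-3 had 3125 in replicate 2 and 1991 in replicate 1. Striated muscle Mir1a-1 and Mir133a-1 had 0 reads in both libraries, and Mir206 had 113 reads in replicate 2 and 107 in replicate 1. Liver Mir122 had 276 reads in replicate 2 and 140 in replicate 1. Mir9-1, Mir1a-2 and Mir142 were not analysed here.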

How the data were processed

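The authors deposited 1 table of raw read counts per library, on build mm10 and with GENCODE M4 genes, per the authors' deposited notes. Their aligner and counter are, as steps, not given in the sources used here. A row holds a count for both strands and for each strand, and the table has no header: of the strand columns, the one summing to more reads was read as the genes' own. Lines without a gene stayed out of totals and tests. Of all reads, those placed at several loci were 34.2% in replicate 2 and 35.4% in replicate 1, unmapped ones 15.8% in replicate 2 and 13.7% in replicate 1, and those outside genes 2.96% in replicate 2 and 2.56% in replicate 1. Symbols, positions and overlaps came from GENCODE M21 (GRCm38, the same build as mm10), for 1894 of 1973 identifiers.

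Features with at least 10 reads in a library were tested on the whole table plus 1 row for Mirlet7f-1, with TMM scaling (edgeR 4.0.16, R 4.3.3) and an exact conditional binomial test (scipy 1.17.1, Python 3.11.15). The calculation was tested on simulated data. DESeq2 1.42.0 size factors, total counts, other count minimums and edgeR's exact test with an assumed spread were alternatives. Shared stretches were searched in GENCODE M21 microRNA transcripts on both strands, a predicted gene over a named microRNA counting once; no genome was searched. The 5p form of Mirlet7a-2 was taken as let-7a-5p, which its hairpin holds. The members were defined by symbol, with no count in the rule, but members and lists were chosen with earlier results of these data known. Named genes are the 9 members, the related list, and the 2 rows above and below Mirlet7g and Mirlet7i.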

Additional observations from a re-analysis of the deposited data

Results flagged for a closer look

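Reads on the strand opposite to Mirlet7b exceeded the 3 reads that a count of 0 allows in both libraries, a signal outside the column used for the levels. There were 14 such reads in replicate 2, or 0.0386% of the reads at this row (exact 95% interval 0.0211 to 0.0648), and 4 in replicate 1, or 0.0146% (0.00397 to 0.0373). No gene that spans the whole Mirlet7b hairpin is annotated on that strand in GENCODE M21, and partial overlaps were not examined. Of the other 7 members with a row of their own, Mir98 had 1 opposite-strand read in each library and the rest had 0. At the Gm24111 row 1 read in each library lay on the strand of Gm24111 itself.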

How the results depend on the processing

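The members' share of 13.3% was 13.3% without Mirlet7f-1, 12.98% over gene reads of either strand and 6.20% of all reads of the library; leaving out a replicate gave 12.9% to 13.6%. Counts of calls under DESeq2 size factors, total counts and count minimums of 1 and 50 stayed within 1.5 times of the counts reported, and scaling shifted every log2 ratio by 0.01 with DESeq2 size factors and 0.02 with total counts. With total counts, and with a count minimum of 50, 3 members were called higher instead of 2. Scaling levels to all reads of the library moved 9 of 9 levels. With edgeR's exact test at a coefficient of variation of 0.1, 0 members were called higher and 0 lower, and 4 and 2 of all features; at 0.2 these counts were 0 throughout, with 12 of all features and 0 members at an unadjusted p under 0.05. Reading Mirlet7e from the Gm25927 row, a choice made after seeing the data, moved the share of the miR-99/miR-125 let-7 genes to 0.685%, against 0.0884% without it. Reads placed at several loci are in none of these levels, and depth limited the ratio of Mirlet7f-1 most, with 357 reads in replicate 1. No paired analysis was possible because there is 1 group.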

Other observations

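Mir7j, a gene whose annotated hairpin holds a stretch within 1 mismatch of let-7i-5p, is in neither the members nor the related list. It had 315 reads in replicate 2 and 224 reads in replicate 1, a mean of 61.0 CPM, below every member. Whether its mature form lies in another hairpin was not searched. It was chosen after its values were seen.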
